A study of Mus musculus with 24 samples.

Results

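The extracellular matrix is the protein scaffold between cells, and 42 genes that build it or remodel it were followed here in the mouse colon, out of 45616 genes that the array measured. The genes were chosen by their known role, with earlier results of these data known, and all 42 had a probe. They are 5 fibrillar collagens, 4 collagens of basement membranes, the 3 chains of collagen VI, 2 fibril-associated collagens, 9 matrix glycoproteins and elastic fibre genes, 4 proteoglycans, 3 enzymes that crosslink collagen and elastin, 7 matrix metalloproteinases, 3 inhibitors of these proteinases and both receptors for platelet-derived growth factor. RNA from colon tissue of 24 C57BL/6J mice was hybridised to 24 1-colour arrays, 4 in each of 6 groups. The groups were males, females and ovariectomised (OVX) females, each on a low fat diet (LFD, 10% of energy from fat) or a high fat diet (HFD, 45%), written as M, F and F(OVX) followed by the diet, for example F(OVX) + HFD. According to the methods the mice were bought at 7 weeks of age and ate their diet for 14 weeks, and those that kept their gonads had sham surgery. All groups, the LFD groups included, had the carcinogen azoxymethane (10 mg/kg) followed by 3 cycles of 1.5% dextran sulfate sodium in the drinking water, so no group here shows an untreated colon. The methods name 5 animals per group for the arrays, chosen for body weights close to the group average, whereas the labels give 4 samples per group.

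Collagens I, III and V form the fibrils of the submucosa and are made mainly by fibroblasts, while collagen IV and its partners form the thin basement membrane under the epithelium and around vessels and muscle. Glycoproteins such as fibronectin and small proteoglycans such as decorin tie fibrils to each other and to cells, and lysyl oxidases then crosslink the fibres and make them stiffer. Matrix metalloproteinases cut these proteins and tissue inhibitors of metalloproteinases hold them in check, and both kinds of gene are known to be induced in inflamed or healing intestine.

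A promoter sequence was found for 27 of the 42 genes in RefSeq (GRCm38.p6), as 33 windows from 250 bases before to 50 bases after a transcription start. The metalloproteinase genes are shown because 4 of them carry the same letters close to a start. The AP-1 letters TGANTCA, which read the same on both strands, were in 5 of the 33 windows, those of Mmp3, Mmp10, Mmp12, Mmp13 and Col6a1, and in 7.81% of all 32851 windows. The TATA letters TATAAA were searched on both strands and were in 9 of the 33 windows, those of 8 genes, and in 13.6% of all windows. Of the other letters searched on both strands, CCAAT was in the windows of 10 members (37.4% of all windows) and GGGCGG in those of 15 members (35.7%). The 120 bases before the start follow, on the plus strand and ending at the base before the start, with the AP-1 and TATA letters in capitals. They lie at chr9:7272394-7272513 for Mmp13, chr9:7347254-7347373 for the second start of Mmp12, chr9:7445702-7445821 for Mmp3 and chr9:7502222-7502341 for Mmp10. The 120 bases before the first start of Mmp12 (chr9:7344277-7344396), not printed here, held neither the AP-1 nor the TATA letters.
Mmp13: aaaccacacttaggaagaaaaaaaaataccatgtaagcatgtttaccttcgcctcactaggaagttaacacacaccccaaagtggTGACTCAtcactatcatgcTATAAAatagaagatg
Mmp12: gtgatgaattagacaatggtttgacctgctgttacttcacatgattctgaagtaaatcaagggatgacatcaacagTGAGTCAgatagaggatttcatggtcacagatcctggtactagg
Mmp3: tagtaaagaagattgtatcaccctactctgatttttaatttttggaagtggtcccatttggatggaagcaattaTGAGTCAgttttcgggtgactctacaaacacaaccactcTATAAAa
Mmp10: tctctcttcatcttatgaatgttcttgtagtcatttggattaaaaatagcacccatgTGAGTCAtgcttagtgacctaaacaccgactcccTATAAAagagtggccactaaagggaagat
The first AP-1 letter lies 35 bases before the start in Mmp13, 44 in Mmp12, 46 in Mmp3 and 63 in Mmp10. These are matches of letters, and binding of a factor was not measured. The genes Col4a1 (minus strand) and Col4a2 (plus strand) on chromosome 8 have annotated starts 21 bases apart and run in opposite directions. The start of Col4a2 has the lower coordinate, so both transcripts cover the bases between the starts.

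Most of the matrix genes were measured well. A probe well above background was seen on all 24 arrays for 30 of the 42 genes, which included 4 of the 5 fibrillar collagens, 3 of the 4 basement membrane collagens, all 3 chains of collagen VI, all 4 proteoglycans and all 3 metalloproteinase inhibitors. Of the 12 genes not well above background on some arrays, 5 were metalloproteinases. Mmp10, which cuts proteoglycans and fibronectin, was well above background on 23 arrays and its neighbour Mmp3 on 21. Mmp13, the main collagenase of the mouse, was well above background on 13 arrays, the gelatinase Mmp9 on 8 and the macrophage elastase Mmp12 on 3. Lox and Eln were seen on 22 arrays, Tnc on 21, Col5a2 on 18, Col14a1 and Thbs2 on 14, and Col15a1, a collagen of basement membranes, on 1. A gene entered a test if at least 1 of the groups compared had it well above background on each of its 4 arrays. This left out Col15a1, Col14a1, Thbs2, Mmp9, Mmp12 and Mmp13 in the diet comparisons of males and of females, and also Col5a2, Tnc and Mmp3 in OVX females.

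The arrays differed in brightness, with a 75th percentile of signal from 124.6 to 668.9 and 40.5% to 61.86% of probes well above background. The lowest shares were on F(OVX) + LFD replicate 3 and F + HFD replicate 2. No spot was saturated, and arrays of a group correlated at 0.938 to 0.988. All 8 epithelial markers and at least 8 of 10 smooth muscle markers were well above background on every array. Hoxb13, a gene of the distal colon, had log2 levels of 2.18 and 5.04 on M + LFD replicates 1 and 2 and 12.58 to 14.79 on the other 22 arrays, so results in males are also given without these 2 arrays. Males, females and OVX females were each on a slide of their own, and each slide had LFD in its first row and HFD in its second. Sex and surgery therefore cannot be told apart from slide, and diet cannot be told apart from slide row. According to the methods mice shared cages, and neither the methods nor the labels say which mice of a group did. The p-values measure the spread between these samples.

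The first question was whether the high fat diet changed matrix genes in males. Of the 36 members tested, 1 passed both thresholds of the methods (1.5-fold either way, with a limma p under 0.05 before adjustment), against 4.3% of all 20516 genes tested (2.5% in the direction of higher with HFD). That gene was Loxl1, an enzyme that crosslinks elastin. The mean was higher in M + HFD for 33 of the 36 genes. The median difference was 0.34 on the log2 scale, beside 0.01 over all genes. Without M + LFD replicates 1 and 2, the arrays low in Hoxb13, it was 0.10, with 27 of 36 genes higher and none that passed. Between single arrays of the same group, the median over the members had an SD of 0.43, pooled over the groups. With all 8 arrays, all 5 fibrillar collagens, all 3 chains of collagen VI and all 4 metalloproteinases tested lay on the higher side, with differences from 0.12 for Col5a2 to 0.66 for Col3a1 among the fibrillar collagens. The 3 genes with a lower mean were Thbs1 (-0.10), Lum (-0.14) and Lox (-0.17). No gene of the array had an adjusted p under 0.05 (limma, Benjamini-Hochberg), and with the methods' own independent test in place of limma 0 of the 36 members passed.

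Loxl1 had log2 levels of 7.17, 7.87, 8.44 and 8.45 in M + LFD and 8.62, 8.66, 8.63 and 9.30 in M + HFD. The groups did not overlap, which was so for 2.6% of all genes tested, and the lowest value was on M + LFD replicate 1. The difference was 0.82 (SE 0.31, 95% interval 0.12 to 1.53, limma adjusted p = 0.8), and the exact permutation test, two-sided, gave p = 0.0286, the smallest that 4 against 4 arrays allow. The call was lost when replicate 1 (leaving 0.55) or 2 (0.79) of M + LFD or replicate 4 of M + HFD (0.66) was left out. Without both arrays low in Hoxb13 the difference was 0.36 and did not pass, and with the methods' test on all 8 arrays the 0.82 did not pass either. In females Loxl1 lay between 8.11 and 9.61 with LFD and between 8.14 and 9.60 with HFD, a difference of 0.02 (SE 0.40), and in OVX females between 7.56 and 8.70 and between 7.79 and 8.58, a difference of 0.14 (SE 0.29).

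Fibronectin (Fn1), a glycoprotein that links collagen to cells, had the largest difference among the members tested in males. Its log2 levels were 10.40, 11.19, 12.05 and 12.47 in M + LFD and 12.75, 11.85, 12.52 and 13.03 in M + HFD. The groups overlapped, because M + HFD replicate 2 lay below the upper values of M + LFD. The difference was 1.01 (SE 0.45, 95% interval -0.03 to 2.04), with p = 0.114 in the exact permutation test. It passed both thresholds when replicate 3 (giving 1.18) or 4 (1.32) of M + LFD or replicate 2 of M + HFD (1.24) was left out. Without the 2 arrays low in Hoxb13 it was 0.28.

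Fibulin 1 (Fbln1), a glycoprotein of elastic fibres and basement membranes, showed the same dependence on these arrays. Its log2 levels were 8.19, 9.48, 10.49 and 10.57 in M + LFD and 10.30, 10.25, 10.20 and 11.38 in M + HFD. The 2 low values were those of the arrays low in Hoxb13. The difference was 0.85 (SE 0.54), and it was 0.00 without these 2 arrays. Of the marker lists of other cell types in males, those of fibroblasts, smooth muscle, macrophages, endothelium and pericytes had median diet differences of 0.15, -0.03, 0.10, 0.05 and -0.32, with no marker that passed. All 4 markers of enteric glia and neurons tested had a lower mean with HFD (median -0.57). On M + LFD replicates 1 and 2 the median deviation of this list from the means over all arrays was 1.69 and 1.82. It was taken over the markers of the list well above background on at least 12 arrays. The median was -0.43 for T and B cells, -0.04 for epithelium and -0.51 for adipocytes. In each of these lists 1 marker passed as lower, Cd3g (-0.64), Cdx2 (-1.77) and Cidec (-3.06), as did Upk1b (-1.25) of mesothelium. Of all genes tested, 4.3% passed in either direction. Upk3b, Wt1 and Lrrn4 of the mesothelium list were well above background on 0 arrays, and Plin1 of the adipocyte list on 1. The marker values were not taken without the 2 arrays low in Hoxb13. The part of these cells in the matrix values was not tested.

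In females 1 of the 36 members tested passed both thresholds, against 1.2% of all 22085 genes tested (0.398% in the direction of higher with HFD). The means lay on both sides, with 14 genes higher and 22 lower in F + HFD, and the median difference was -0.04, beside 0.00 over all genes. Of the 5 fibrillar collagens 4 had a lower mean, with differences from -0.19 (Col3a1 and Col5a1) to 0.03 (Col5a2). The differences of the 3 inhibitors of metalloproteinases were -0.05 (Timp1), 0.10 (Timp2) and 0.13 (Timp3). The replicate numbers were taken to pair the female arrays, a choice made from these data, and the pairs went different ways. Within pairs the median over the 36 genes was 0.13 for number 1, 0.32 for number 2, -0.19 for number 3 and -0.39 for number 4, with 24, 25, 7 and 6 genes higher with HFD. Leaving out both arrays of a number gave medians from -0.15 to 0.06. Leaving out a single array, which breaks a pair, moved the median further. It was 0.23, with 31 of 36 genes higher, without F + LFD replicate 3, and -0.26, with 32 of 36 lower, without F + HFD replicate 3. Without F + LFD replicate 2 it was -0.29.

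The gene that passed in females was Fbln1. Its log2 levels were 10.62, 10.26, 11.13 and 10.44 in F + LFD and 11.31, 11.05, 11.48 and 10.94 in F + HFD. The groups overlapped through F + LFD replicate 3, which stood above 2 of the 4 HFD arrays. The difference was 0.59 (SE 0.21, 95% interval 0.10 to 1.08, limma adjusted p = 0.991), with p = 0.0857 in the exact permutation test. The call was lost when replicate 2 (leaving 0.47) or 4 (0.53) of F + LFD, or replicate 1 (0.55) or 3 (0.49) of F + HFD, was left out, and also with normexp background correction (0.57) and in 1 fit of all 24 arrays. It held with the replicate number as a block. Fbln1 was the member with the highest diet difference averaged over males, females and OVX females, 0.57 (SE 0.22, limma adjusted p = 0.984), which is below the 1.5-fold threshold.

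Lox, the enzyme that crosslinks collagen and elastin, had a lower mean with HFD in females and in OVX females and passed in neither. Its log2 levels were 7.10, 6.05, 7.57 and 6.67 in F + LFD and 6.22, 6.35, 6.32 and 6.32 in F + HFD. The HFD arrays were nearly level, and F + LFD replicate 2 lay below them. The difference was -0.54 (SE 0.29, exact permutation p = 0.143), and without F + LFD replicate 2 it was -0.81 and passed. In OVX females the log2 levels were 6.40, 5.66, 6.80 and 6.66 with LFD and 5.88, 4.65, 5.80 and 6.25 with HFD, a difference of -0.74 (SE 0.37, exact permutation p = 0.143). Here too a low LFD array made the groups overlap, and without F(OVX) + LFD replicate 2 the difference was -0.98 and passed, as did the -0.94 without F(OVX) + HFD replicate 4 and the -0.80 with the mean of all probes. In males the levels were 5.75, 5.93, 6.42 and 6.48 with LFD and 5.60, 4.82, 6.75 and 6.74 with HFD, a difference of -0.17. Averaged over the 3 kinds of mice the difference was -0.48 (SE 0.23), short of both thresholds.

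Mmp10 spread widely within both diets. Its log2 levels were 6.92, 5.63, 7.44 and 8.58 in F + LFD and 6.70, 5.48, 6.88 and 6.89 in F + HFD. Replicate 2 was the lowest array of either group, and the difference was -0.66 (SE 0.60). Without F + LFD replicate 2 it was -1.16 and passed. In OVX females the levels were 7.25, 5.0, 6.56 and 7.56 with LFD and 6.70, 6.51, 7.24 and 7.27 with HFD, a difference of 0.33 (SE 0.51) that turned to -0.20 without F(OVX) + LFD replicate 2. In males it lay between 5.06 and 8.08 with LFD and between 5.90 and 8.58 with HFD. Mmp3, which activates other metalloproteinases, had a similar spread, from 3.48 to 7.41 in M + LFD and from 4.38 to 8.07 in M + HFD.

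**Figure D1:**
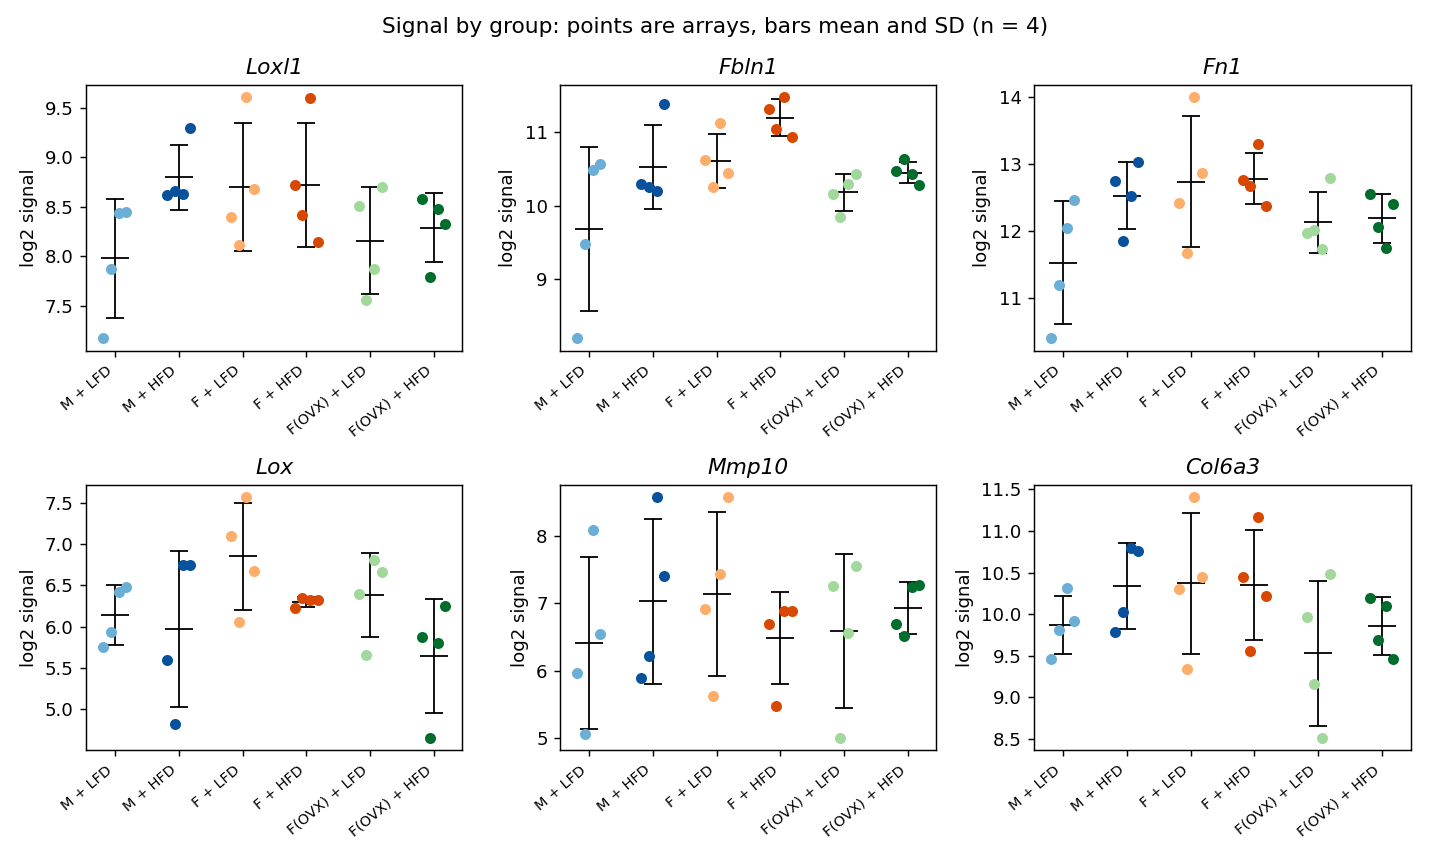
Log2 quantile-normalized intensity of Loxl1, Fbln1, Fn1, Lox, Mmp10 and Col6a3 (vertical axes) in the 6 groups (horizontal axes). Points are single arrays, 4 per group, and bars are the mean ± SD. Loxl1 in males is the panel in which HFD and LFD arrays do not overlap within a kind of mouse, while Fn1 and Fbln1 in M + LFD spread down to 10.40 and 8.19.

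In OVX females no member passed, 0 of 33 tested, against 2.19% of all 19211 genes tested, and 0 of the 33 had a limma p under 0.05 before adjustment (3.69% of all genes). The mean was higher with HFD for 21 genes and lower for 12, with a median difference of 0.09 (0.01 over all genes). Single arrays turned this, with 16 genes higher and 17 lower (median -0.05) without F(OVX) + LFD replicate 2, 14 higher and 22 lower (-0.04) without replicate 3, and 29 higher and 4 lower (0.28) without replicate 4 of that group. Without F(OVX) + HFD replicate 1 or 2 the median was 0.04 or 0.18. The difference furthest above 0 was that of Col6a3, a chain of the beaded filaments of collagen VI. Its log2 levels were 9.97, 9.16, 8.51 and 10.48 in F(OVX) + LFD and 10.20, 9.69, 10.10 and 9.46 in F(OVX) + HFD. The HFD arrays lay inside the range of the LFD arrays, and the difference of 0.34 (SE 0.40) was 0.00 without F(OVX) + LFD replicate 3. Markers of smooth muscle and macrophages stood beside these values as follows. All 9 smooth muscle markers tested had a higher mean with HFD, with a median difference of 0.76, and 4 of them passed both thresholds, namely Actg2 (0.92), Cnn1 (1.12), Des (1.25) and Tagln (0.72). All 8 macrophage markers had a lower mean (median -0.49) and none of them passed, and the median of the fibroblast markers was -0.09. In females the 9 smooth muscle markers also had a higher mean (median 0.50) and the 8 macrophage markers a lower one (median -0.45). These marker differences were not taken with single arrays left out. The LFD arrays include F(OVX) + LFD replicate 3, low in smooth muscle markers. They also include F + LFD replicate 3, high in smooth muscle and macrophage markers (values below). The part of these cells in the matrix values was not tested. In RNA from whole tissue, fewer cells of a type and less RNA per cell cannot be told apart.

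**Figure D2:**
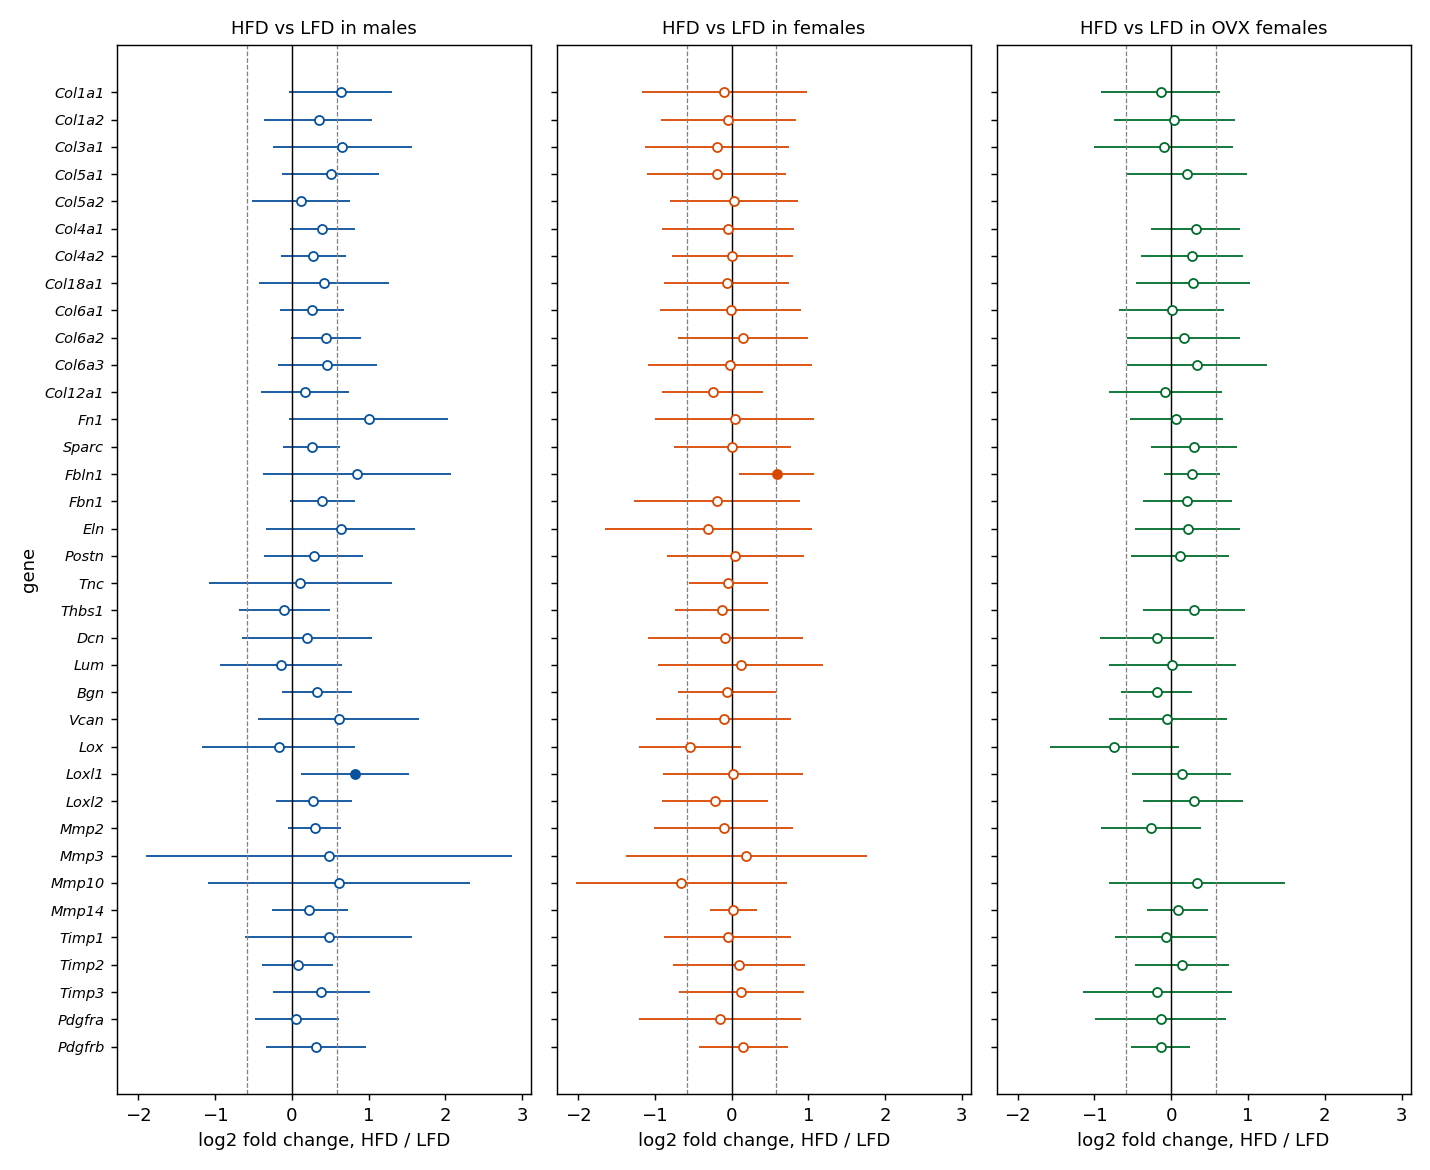
Difference between HFD and LFD (log2, horizontal axis) with its 95% interval from limma, arrays unpaired, for the members tested in males, females and OVX females, in 3 panels. Filled points pass both thresholds and dashed lines mark a 1.5-fold change; Loxl1 in males (0.82) and Fbln1 in females (0.59) are the filled points, and most intervals reach beyond a dashed line.

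These comparisons had limited precision for matrix genes. With the arrays unpaired, the 95% interval of the diet difference reached a 1.5-fold change for 35 of 36 members in males, 34 of 36 in females and 31 of 33 in OVX females, beside 62.6%, 57.7% and 58% of all genes. The intervals that stayed within 1.5-fold were those of the inhibitor Timp2 in males, of the membrane-bound proteinase Mmp14 and tenascin C (Tnc) in females, and of Mmp14 and Pdgfrb in OVX females. The median width of the interval to either side was 0.65, 0.87 and 0.68 for the members and 0.50, 0.47 and 0.47 for all genes. Pairing the female arrays by number, which is their slide column, was a choice made from these data. With it, the interval of 23 of the 36 members stayed within 1.5-fold, and that of 13 reached it (49.5% of all genes). The median width to either side was then 0.43 for the members and 0.40 for all genes. The 23 include 4 of the 5 fibrillar collagens (Col1a2, Col3a1, Col5a1 and Col5a2), Col4a1 and Col4a2, all 3 chains of collagen VI, all 4 proteoglycans, Loxl1 and Loxl2, and Mmp2. In males and OVX females, a 1.5-fold change of most matrix genes could not be told from no change at this spread. The same held in females with the arrays unpaired. The paired intervals rest on pairs of different mice, of which numbers 1 and 4 correlated better with another number. Both arrays of number 3 were high in matrix genes, and the pairing takes that shared height out of the spread. The design itself does not give the precision of the paired intervals. Where a gene had several probes seen on all 8 arrays, the brightest was used. In males the probes of all 10 such members moved the same way, while in females those of Col12a1, Loxl2, Thbs1 and Timp2 (4 of 10) and in OVX females those of Fbn1, Postn and Timp2 (3 of 9) lay on both sides of 0.

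The diet effects of the 3 kinds of mice were next set against each other in a fit of all 24 arrays. No member passed in any of these differences, with 0 of 36 for males against females (2.95% of all genes), 0 of 36 for males against OVX females (6.33%) and 0 of 36 for OVX females against females (1.5%). The diet difference was larger in males than in females for 34 of 36 genes, by a median of 0.38, larger in males than in OVX females for 29 of 36, by a median of 0.28, and larger in OVX females than in females for 25 of 36, by a median of 0.06, beside 0.01 over all genes in each. Without the 2 arrays low in Hoxb13 the median was 0.19 for males against females and 0.01, with 19 of 36 genes higher, for males against OVX females. Single female arrays moved them as much. For males against females the median was 0.13 or 0.62 when replicate 3 or 2 of F + LFD was left out, and 0.58 or 0.23 when replicate 3 or 2 of F + HFD was. For males against OVX females it ran from 0.08 without F(OVX) + LFD replicate 4 to 0.47 without F(OVX) + LFD replicate 3, and it was 0.14 without M + LFD replicate 1, 0.16 when M + HFD replicate 4 was left out and 0.18 when F(OVX) + LFD replicate 1 was. For OVX females against females it ran from -0.20 without F + LFD replicate 3 to 0.31 without F + LFD replicate 2. These comparisons share arrays with each other and with those above. The diet difference averaged over the 3 kinds of mice passed for 0 of 36 members (0.773% of all genes), with a median of 0.12, 29 genes on the higher side and 7 on the lower, a median of 0.02 without the arrays low in Hoxb13, and medians from 0.05 (without F + LFD replicate 2) to 0.23 (without F + LFD replicate 3) when 1 array was left out.

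Matrix genes had a wider spread between mice of the same group than the median gene. Over the 30 members and 16836 genes seen on all arrays, the median SD within a group was 0.67 for the members and 0.24 for all genes in F + LFD, 0.50 and 0.24 in F + HFD, 0.57 and 0.30 in F(OVX) + LFD, 0.35 and 0.22 in F(OVX) + HFD, 0.36 and 0.26 in M + LFD, and 0.39 and 0.28 in M + HFD. The variation was shared by many of the genes. Of the 39 members well above background on at least 12 arrays, 25 had their highest value of all 24 arrays on F + LFD replicate 3, 6 on F + HFD replicate 3 and 3 on M + HFD replicate 4. The lowest value was on F(OVX) + LFD replicate 3 for 13 of them, on F(OVX) + LFD replicate 2 for 7, and on M + LFD replicates 1 and 2 for 4 each.

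**Figure D3:**
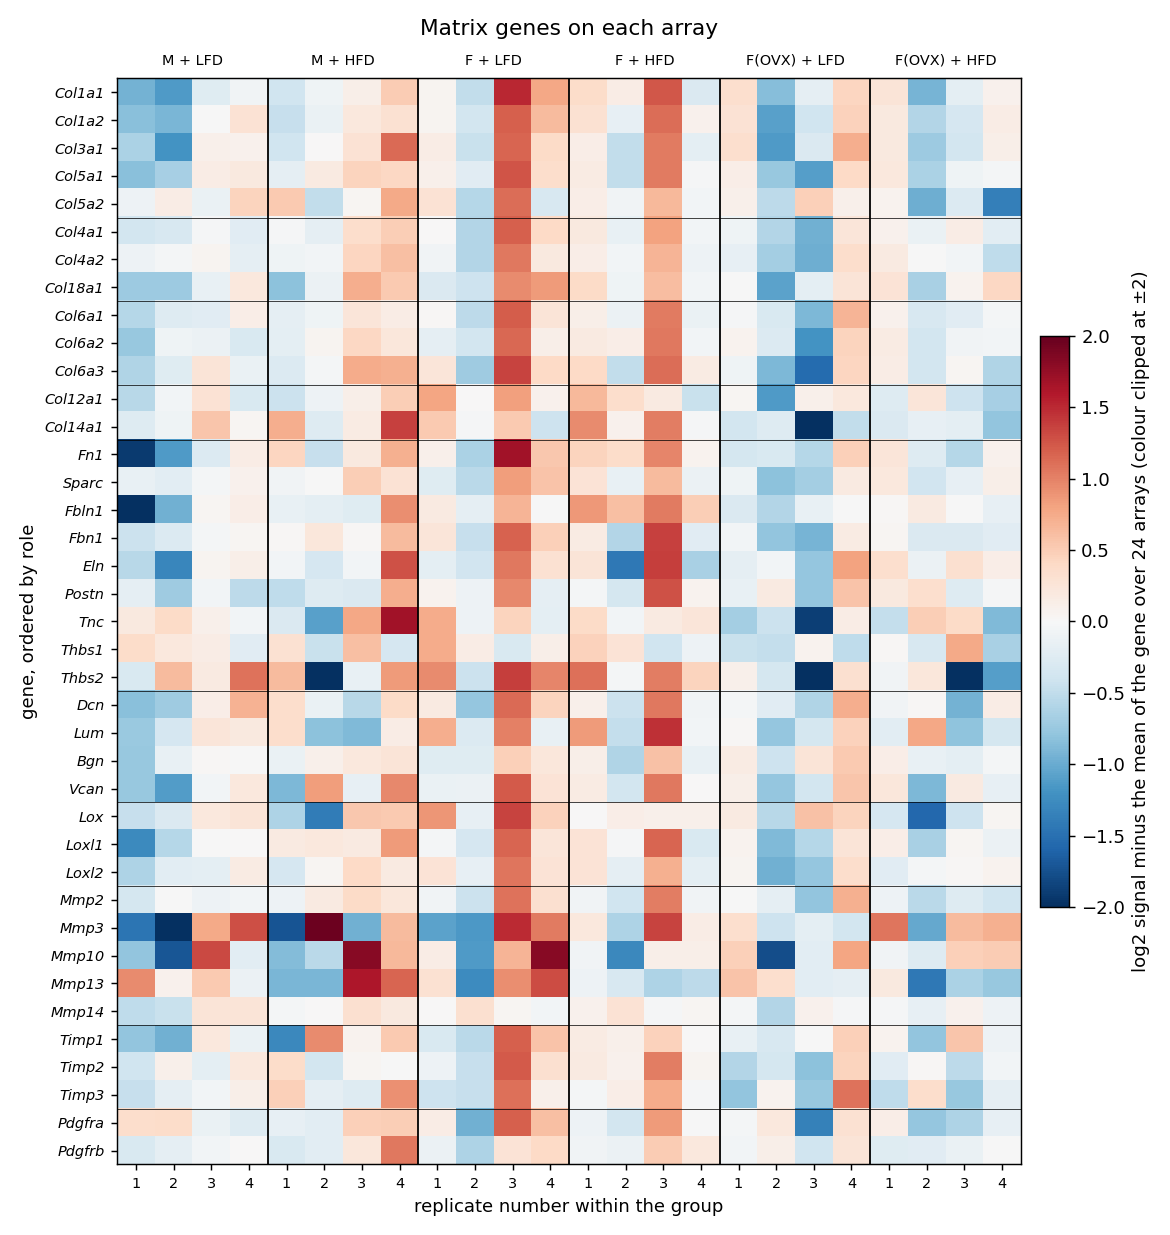
Log2 intensity minus the gene's mean over the 24 arrays (colour, limited to 2 either way) for the 39 members well above background on at least 12 arrays (rows, ordered by role) on each array (columns, by group and replicate). The columns of F + LFD replicate 3 and F + HFD replicate 3 are high over most rows, with median deviations of 1.12 and 1.02.

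The median deviation of the 39 genes from their own means was 1.12 on F + LFD replicate 3 and 1.02 on F + HFD replicate 3, and the next highest were 0.52 on M + HFD replicate 4 and 0.40 on F(OVX) + LFD replicate 4. It was lowest on F(OVX) + LFD replicate 3 (-0.58), M + LFD replicate 1 (-0.56) and F(OVX) + LFD replicate 2 (-0.52). Markers of several cell types moved with it on the high arrays. On F + LFD replicate 3 the median deviation was 0.95 for fibroblast, 1.39 for smooth muscle, 1.61 for macrophage and -0.24 for epithelial markers, and on F + HFD replicate 3 it was 0.87, 0.84, 0.73 and -0.22. The low arrays did not have 1 pattern of markers. On F(OVX) + LFD replicate 3 the medians were -0.28 for fibroblast, -1.41 for smooth muscle and 0.21 for macrophage markers, on F(OVX) + LFD replicate 2 they were -0.46, -0.17 and 0.00, and on M + LFD replicate 1 they were -0.07, -0.44 and -0.81. Over all arrays 9 or 10 of the 10 fibroblast markers, 8 to 10 of the 10 smooth muscle markers and all 8 macrophage markers were well above background. The part of tissue composition in the shared variation was not tested.

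**Figure D4:**
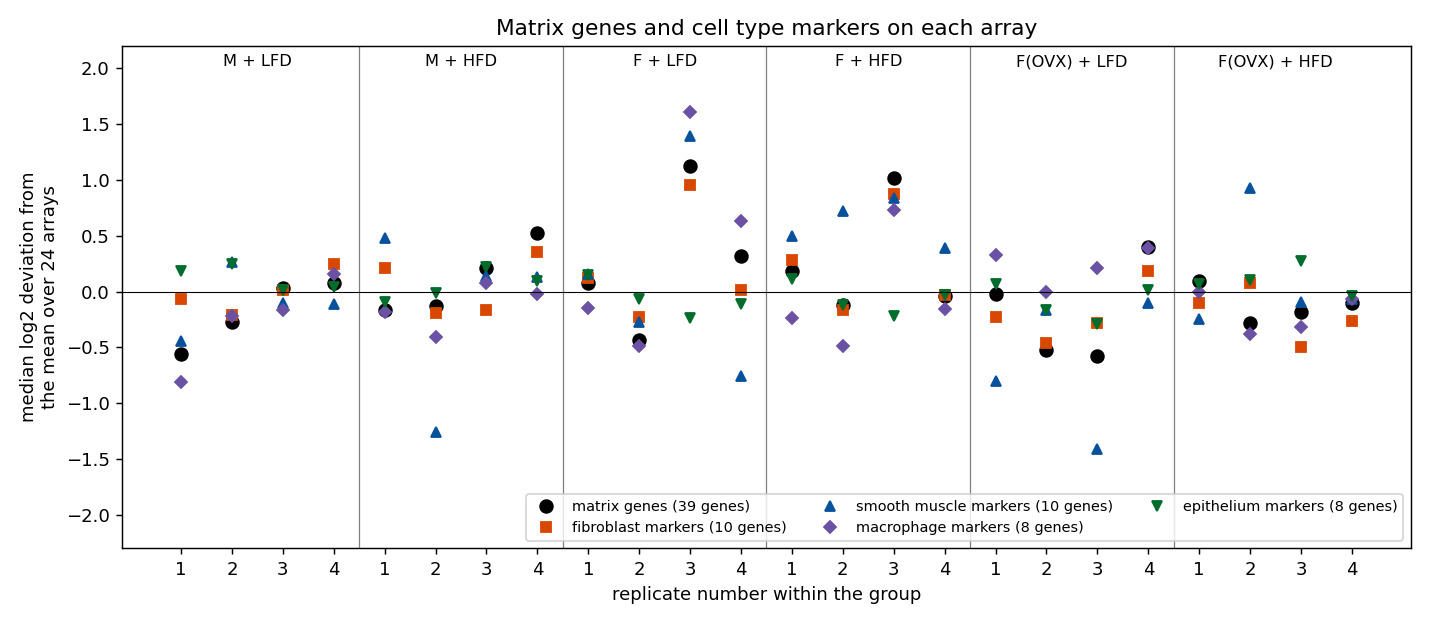
Median deviation from each gene's mean (log2, vertical axis) on each of the 24 arrays (horizontal axis, by group and replicate) for 39 matrix genes and for markers of fibroblasts (10), smooth muscle (10), macrophages (8) and epithelium (8). Matrix genes reach 1.12 on F + LFD replicate 3, where the fibroblast, smooth muscle and macrophage markers are also high and the epithelial markers are at -0.24.

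The 6 pairs of members examined followed each other over the 24 arrays to different degrees. Chains that assemble into the same collagen ran closest together. Col1a1 and Col1a2, the chains of collagen I, had r = 0.95 and rho = 0.93, Col4a1 and Col4a2 had r = 0.95 and rho = 0.87, and Col6a1 and Col6a2 had r = 0.94 and rho = 0.85. The proteoglycans Dcn and Lum had r = 0.77 and rho = 0.78. Mmp3 ran with its inhibitor Timp1 at r = 0.82 and rho = 0.76, and with its neighbour Mmp10, whose promoter holds the same AP-1 letters, at r = 0.46 and rho = 0.45. Without the 2 arrays farthest from the median of the first gene, r was 0.92 for the collagen I chains, 0.90 for collagen IV, 0.87 for collagen VI, 0.66 for Dcn and Lum, 0.75 for Mmp3 and Timp1 and 0.29 for Mmp3 and Mmp10. After each group's mean was taken off, r was 0.95, 0.96, 0.94, 0.78, 0.83 and 0.47 for the pairs in that order. No test is given, since the pairs were picked with the values known. The arrays share the normalization and, within a slide, the slide.

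Groups on the same diet were then compared, which sets sex or surgery, and slide with it, against matrix genes. All 36 members tested had a lower mean in M + LFD than in F + LFD, with a median difference of -0.52 (-0.01 over all genes), and 3 passed both thresholds on the lower side, against 2.2% of all 22209 genes lower and 5.04% in either direction. These were Col1a1, the main chain of collagen I (-1.06, SE 0.41), Fn1 (-1.21, SE 0.44) and Fbln1 (-0.93, SE 0.38). The lowest adjusted p of a member was 0.353 (limma). Col1a1 had log2 levels of 9.57, 9.39, 10.28 and 10.45 in M + LFD, and in all 3 genes the groups overlapped. The count depended on single arrays. It was 0 without F + LFD replicate 3, where the median was -0.24, 1 without M + LFD replicate 1 or without M + LFD replicate 2, 14 without F + LFD replicate 2, and 6 without M + LFD replicate 3 or replicate 4. Without the 2 arrays low in Hoxb13 none passed and 31 of 36 were lower, with a median of -0.22 and differences of -0.61 for Col1a1, -0.48 for Fn1 and -0.08 for Fbln1. With HFD, 0 of 35 members passed between males and females (7.55% of all genes), 15 had a higher and 20 a lower mean in males, and the median was -0.03 (0.01 over all genes), with a range from -0.23 without M + HFD replicate 4 to 0.11 without F + HFD replicate 3. Beside these, the median difference of the fibroblast markers was -0.23 with LFD and -0.13 with HFD, that of smooth muscle -0.21 and -0.75, and that of macrophages -0.66 and -0.12, and their part in the matrix values was not tested.

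OVX females had lower means than females for most matrix genes. On LFD this was so for 35 of 36 members, all but Bgn (0.08), with a median of -0.48 (0.00 over all genes). Without F + LFD replicate 3 the median was -0.22, with 9 of 36 genes higher in OVX females, and without F(OVX) + LFD replicate 2 it was -0.30. Fibrillin 1 (Fbn1), which forms the microfibrils of elastic fibres (-0.76, SE 0.35), and the crosslinking enzyme Loxl2 (-0.69, SE 0.29) passed on the lower side (limma adjusted p = 1), against 1.15% of all genes lower and 1.65% in either direction. The count was 0 without F(OVX) + LFD replicate 2, 12 without F + LFD replicate 2 and 10 without F(OVX) + LFD replicate 4. On HFD 0 of 34 passed (1.97% of all genes), and 32 were lower in OVX females, all but Eln (0.27) and Mmp10 (0.44), with a median of -0.36 (0.01 over all genes), which was -0.16 without F + HFD replicate 3. Fbln1 (-0.75) and Timp2 (-0.53) did not overlap between these groups, which was so on the lower side for 1.93% of all genes, and neither passed. Here the fibroblast markers had medians of -0.40 with LFD and -0.46 with HFD, smooth muscle -0.75 and -0.47, and macrophages -0.22 and -0.25. The comparisons on LFD share the F + LFD arrays, which include the array highest in matrix genes.

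The order of the 6 group means was also taken over the 30 members seen on all arrays. The highest mean was in F + LFD for 17 of them, in M + HFD and F + HFD for 6 each and in F(OVX) + LFD for 1. The lowest was in M + LFD for 13, in F(OVX) + LFD for 10, in F(OVX) + HFD for 6 and in M + HFD for 1. Over all 16836 genes seen on all arrays, the highest mean was in F + LFD for 11.8%. It was in M + HFD for 20.6%, in F + HFD for 15.3% and in F(OVX) + LFD for 15.4%. The lowest mean was in M + LFD for 22.9% of all genes. It was in F(OVX) + LFD for 12.1%, in F(OVX) + HFD for 14.6% and in M + HFD for 20.4%. The F + LFD group includes replicate 3, the array highest in matrix genes. For Sparc, a collagen-binding glycoprotein of fibroblasts, the means ran from 13.10 ± 0.48 (SD, n = 4) in F(OVX) + LFD to 13.63 ± 0.27 in M + HFD, and for decorin (Dcn) from 13.49 ± 0.50 in F(OVX) + HFD to 13.95 ± 0.79 in F + LFD.

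Beyond these 42, the list of other matrix genes held 85, such as laminins, further proteases and integrins. Of the 78 tested in males, 8 passed both thresholds (4.3% of all genes did), 5 higher and 3 lower with HFD, and the median difference was 0.21. The 5 furthest from 0 follow. Cd44, a receptor for the matrix sugar hyaluronan, had log2 levels of 8.85, 8.48, 8.40 and 8.03 in M + LFD and 6.77, 7.70, 7.88 and 7.15 in M + HFD. The groups did not overlap, which was so for 2.6% of all genes tested. The difference of -1.07 (SE 0.28) passed whichever array was left out, and without both arrays low in Hoxb13 (-0.84). Mmp7, a metalloproteinase that epithelial cells make in mouse gut tumours, had 8.0, 7.54, 6.39 and 6.46 in M + LFD and 3.12, 3.58, 5.71 and 6.23 in M + HFD. Mmp7 was well above background on 2 of the 4 M + HFD arrays and was tested through the M + LFD group, in which it was high on all 4. The groups did not overlap, with a fitted difference of -2.44 (SE 0.74), and the 2 highest arrays were those low in Hoxb13, without which it was -1.77 and did not pass. The integrin chain Itga2, part of a collagen receptor, was well above background on 3 of the 4 M + HFD arrays and differed by -1.49 (SE 0.47), and by -0.97 without them, which did not pass. Timp4, a further inhibitor of metalloproteinases, had 2.51, 3.66, 5.11 and 7.71 in M + LFD and 9.28, 7.66, 5.48 and 7.87 in M + HFD. It was well above background on 2 of the 4 M + LFD arrays and was tested through the M + HFD group. The groups overlapped, and the fitted difference of 2.82 (SE 1.15) was 1.16 without the 2 arrays. It lost its call without M + LFD replicate 1, 2 or 3 or M + HFD replicate 1, 2 or 4, with differences from 2.08 to 2.94. Mfap5, a protein of microfibrils, differed by 0.92 (SE 0.34), by 0.33 without the 2 arrays, and lost its call without M + LFD replicate 1 or 2 or M + HFD replicate 1 or 4 (0.71 to 0.91). The adjusted p of these 5 genes was 0.8 (limma, Benjamini-Hochberg).

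In females 0 of the 78 other matrix genes tested passed (1.2% of all genes did), and 0 had a limma p under 0.05 before adjustment. In OVX females 2 of 73 passed, close to the share of all genes (2.19%). Col8a1, a short-chain collagen of vessel walls, had log2 levels of 9.41, 9.25, 8.38 and 8.74 in F(OVX) + LFD and 9.48, 11, 9.66 and 10.20 in F(OVX) + HFD. The difference of 1.14 (SE 0.36, limma adjusted p = 1) passed whichever array was left out, with values from 0.84 to 1.34. Timp4, well above background on 2 of the 4 F(OVX) + HFD arrays, differed there by -1.75 (SE 0.64, limma adjusted p = 1), and lost its call without replicate 2 or 4 of F(OVX) + LFD or replicate 2 or 3 of F(OVX) + HFD (-1.55 to -1.29). None of the 14 genes of the TGF-beta pathway, which drives collagen synthesis in fibroblasts, passed both thresholds in males, females or OVX females, and none of the 3 tested ligands of the PDGF receptors did. Of all genes tested, 4.3%, 1.2% and 2.19% passed in these comparisons, so lists this short can hold none without differing from other genes.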

How the data were processed

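Total RNA from colon was labelled with Cy3 and hybridised to Agilent 1-colour arrays, and per the labels the arrays were read with Agilent Feature Extraction 11.0.1.1. The authors deposited 1 scanner file per array, whose processed signal is an intensity after background subtraction by that program, with flags for signal well above background. According to their methods the authors filtered flagged probes, took logarithms and applied quantile normalization. Here the processed signals of 59305 non-control spots were taken, outlier spots were dropped, log2 values were quantile-normalized over the 24 arrays, and spots were averaged over 56605 probes. Probes were named through their accession and RefSeq (GRCm38.p6), which gave a symbol to 58.29% of them, and the brightest probe stood for its gene. A gene was tested where at least 1 group had it well above background on each of its 4 arrays, in R 4.3.3 with limma 3.58.1, in the 8 arrays of each diet comparison and in all 24 arrays for the other contrasts. A gene passed if it differed 1.5-fold or more with a p under 0.05 before adjustment, as in the study's methods, and Benjamini-Hochberg adjusted p-values over all genes stand beside it. Single genes were also compared by an exact permutation test over 70 assignments. The limma steps were tested on simulated data. The number of arrays limits the precision.

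The 42 genes, the other lists and the tests were chosen with earlier results of these data known. Values on every array are given for members that passed in a diet comparison and for the 3 furthest from 0 in each; of the other matrix genes, those that passed, at most 5 per comparison. Replicate numbers equal the slide column. In females arrays of the same number deviated together (r = 0.28, 0.45, 0.58 and 0.26 for numbers 1 to 4), so these numbers were taken to pair the arrays. The highest r with another number was 0.32, 0.44, -0.05 and 0.35, so numbers 1 and 4 correlated better with another number. The arrays of a pair are different mice, and the pairing was chosen from these data. The alternatives were scaling to the 75th percentile, normexp background correction (offset 50), other filters on dim probes, the mean of all probes of a gene, the replicate number as a block, a threshold on the adjusted p, the methods' t-test, 1 fit of 24 arrays and leaving out arrays or, chosen after seeing the data, pairs of female arrays.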

Additional observations from a re-analysis of the deposited data

Results flagged for a closer look

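A matrix gene was well above background throughout in 201 sets of 4 arrays. Of these, 5 held an array that stood apart from the other 3. This is fewer than chance alone gives, about 1 in 20 sets. The 5 are therefore listed as values only. Loxl1, which crosslinks elastin, was at 9.30 on M + HFD replicate 4 and between 8.62 and 8.66 on the other arrays of that group, a gap of 0.94 of the group's range. On the same array Fbln1 was at 11.38, beside 10.20 to 10.30 (0.91 of the range). The inhibitor Timp2 was at 13.57 on F + HFD replicate 3, beside 12.60 to 12.72 (0.88), and this array was high in most matrix genes. Col12a1, a fibril-associated collagen, was at 6.0 on F(OVX) + LFD replicate 2, beside 7.18 to 7.35 (0.88). Thbs1, a matrix glycoprotein that binds and activates latent TGF-beta, was at 9.32 on F(OVX) + LFD replicate 3, beside 8.75 to 8.80 (0.90), although this array was low in most matrix genes.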

How the results depend on the processing

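The number of members that passed was small and moved with the settings, no called value changed sign, and the medians over the members moved with single arrays as given beside them above. With the 75th percentile the count was 3 in males (1 in the report), 1 for the averaged diet effect (0) and 4 for F(OVX) + LFD against F + LFD (2). With normexp it was 2 in males, 0 in females (1), 1 for M + HFD against F + HFD (0) and 1 for F(OVX) + HFD against F + HFD (0). Without a filter on dim probes it was 2 in females and 2 for F(OVX) + HFD against F + HFD. With the mean of all probes it was 1 in OVX females (0), 5 for M + LFD against F + LFD (3), 1 for F(OVX) + LFD against F + LFD and 2 for F(OVX) + HFD against F + HFD. At an adjusted p under 0.05 it was 0 in every comparison. The methods' t-test gave 0 in males, and 1 fit of all arrays gave 3 in males and 0 in females. Without M + LFD replicates 1 and 2 it was 0 in males and 0 for M + LFD against F + LFD.

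With the replicate number as a block, the pairing left 1 member in females. Without both arrays of a number, chosen after seeing the data like the leaving out of arrays for the other matrix genes and the paired intervals, the count in females ran from 0 to 2. In males and OVX females the numbers were not taken to pair the arrays (r from -0.26 to 0.01 and from -0.09 to 0.33). Numbers 1, 3 and 4 in OVX females correlated best with their own number, as did numbers 2 and 3 in females. The replicate block gave 6 in males and 1 in OVX females (Lox). It gave 6 for the diet effect in males against females, 4 for males against OVX females, 8 for M + LFD against F + LFD, 5 for F(OVX) + LFD against F + LFD and 1 for F(OVX) + HFD against F + HFD.

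When 1 array was left out, the count ran from 0 to 6 in males, 0 to 3 in females and 0 to 1 in OVX females. It ran from 0 to 3 for the diet effect in males against females, 0 to 1 for males against OVX females, 0 to 1 for OVX females against females and 0 to 1 for the averaged effect. It ran from 0 to 14 for M + LFD against F + LFD, 0 to 1 for M + HFD against F + HFD, 0 to 12 for F(OVX) + LFD against F + LFD and 0 to 3 for F(OVX) + HFD against F + HFD. The cause of these changes was not tested. Signal near background limits the metalloproteinases most.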
